A study of Danio rerio with 6 samples.

Results

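Lens crystallins were examined in whole zebrafish larvae mutant for *sart3*, which encodes a factor that helps to recycle the small nuclear ribonucleoproteins of the spliceosome. The members were the genes of the deposited table whose symbol begins with crya, cryb or cryg, which gave 57 of 37898 genes. They comprised 3 alpha, 7 beta A, 6 beta B, 34 gamma M and 6 other gamma crystallins, and crybgx, which was kept apart. The tested animals were *sart3*-/- mutants at 4 days post fertilization (dpf), homozygous for smu471, a chemically induced allele with a premature stop codon. Their controls were WT siblings of the same stage. Both came from crosses between *sart3*+/- fish, and RNA was taken from entire animals with TRIzol. The paper names high-resolution melting for stained animals, and small heads and eyes for sorting 4 dpf larvae for western blot. How larvae for RNA sequencing were told apart is not stated there. Each group had 3 libraries, numbered 1 to 3, prepared with the NEBNext Ultra RNA kit. Neither the labels nor the methods say how many animals were pooled or whether libraries came from separate clutches, so p-values measure only the spread between these libraries, which may be technical.

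Crystallins are the soluble proteins that fill the fibre cells of the lens and give it its refractive power. Alpha crystallins belong to the small heat shock proteins and act as chaperones, keeping other lens proteins in solution. Beta and gamma crystallins share a fold built from Greek key motifs and are mainly structural, with beta crystallins forming oligomers from acidic (A) and basic (B) chains and gamma crystallins remaining monomers. Gamma M crystallins, rich in methionine, are characteristic of the dense lenses of fish and have multiplied into a large gene family in zebrafish, while gamma N and gamma S crystallins are shared with mammals.

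Mutant libraries held 16008788 to 17387137 counts on genes and sibling libraries 17586740 to 18310233, and TMM factors, which correct for differences in library composition, lay between 0.975 and 1.015. Levels of a gene are given as counts, as CPM (counts over the TMM-scaled library size) or, between genes, as FPKM, which also divides by gene length. The mutated gene itself, *sart3* (ENSDARG00000008032), had 923, 772 and 825 counts in mutants, against 1178, 1218 and 1246 in siblings. Every mutant library lay below every sibling library, and the log2 fold change (mutant over sibling) was -0.44 (SE 0.07, adjusted p = 0.0023, quasi-likelihood test of edgeR, Benjamini-Hochberg adjusted).

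Crystallin mRNA was lower in mutants in every subfamily. Of the 57 members, 41 had enough counts for the test and 36 of these were called lower at an adjusted p under 0.05, while 5 were not called. In comparison, 14.3% of the 24809 genes tested were called lower and 27.9% were called in either direction. No member was higher by edgeR's test, at an unadjusted p under 0.05 the count was also 0, and DESeq2 and limma-voom gave 0 each. In the 36 called members the groups did not overlap, and 22.3% of all genes tested had every mutant library below every sibling library. The fall reached 2-fold in 34 members, against 5.19% of all genes. The median log2 fold change of the tested members was -1.76, beside 0.0079 for all genes tested. RNA came from whole larvae, so fewer lens cells and less crystallin mRNA per lens cell cannot be told apart. The paper reports, without showing the data, that these mutants have small heads and small eyes at the stage sequenced. The part of eye size in the fall of crystallin mRNA was not tested.

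**Figure D1:**
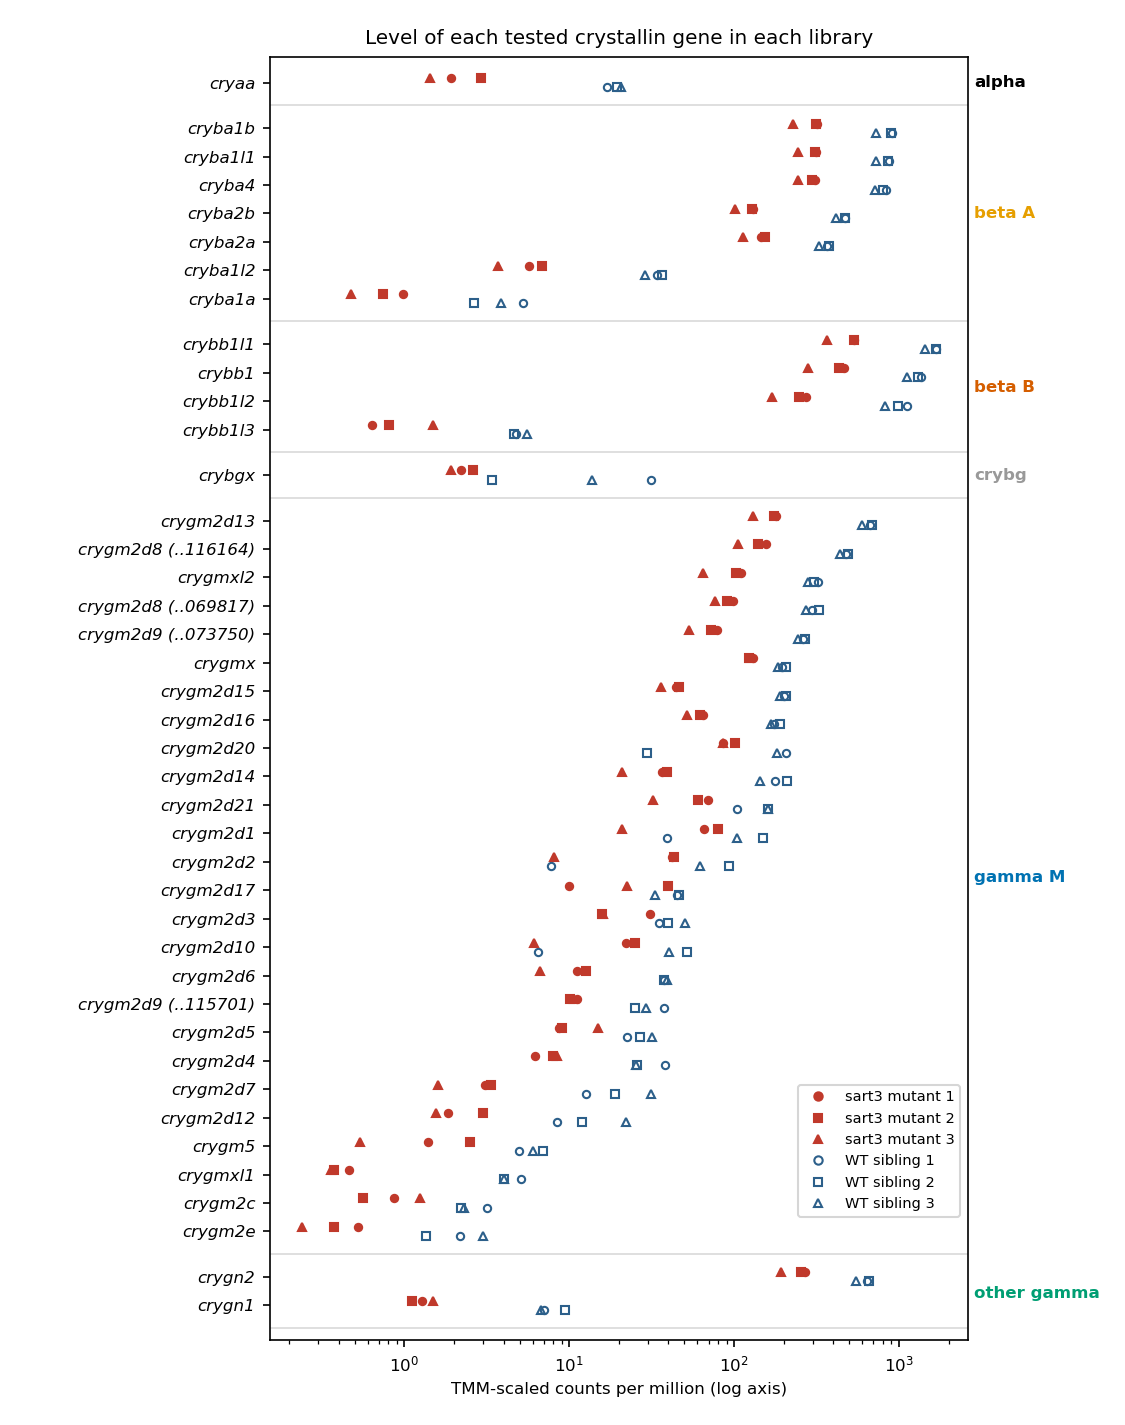
Level of the 41 tested crystallin genes in each library, as CPM scaled by TMM factors on a log axis, with mutants as filled red symbols and siblings as open blue symbols, grouped by subfamily and ordered by level. Red and blue symbols are separated in 36 genes and overlap in 5, all of them gamma M genes.

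By subfamily, the single tested alpha crystallin was lower, as were all 7 beta A crystallins, 4 of 4 tested beta B crystallins, crybgx, 21 of 26 tested gamma M crystallins and both tested gamma N crystallins. Outside gamma M, 15 of 15 tested members were lower. Median log2 fold changes were -1.55 in beta A (range -2.62 to -1.38), -1.91 in beta B (-2.34 to -1.68), -1.73 in gamma M (-3.43 to -0.61) and -1.96 in the gamma N genes (-2.57 to -1.36). These ranges overlapped, and a difference between subfamilies was not tested. Gamma M had the widest range and was the only subfamily with tested members that were not called. It also had 26 tested members, against at most 7 in any other subfamily, and a range widens with the number of genes. Across 12 to 14 alternative settings for each gene, 33 of the 36 called members kept an adjusted p under 0.05 throughout, and the 3 that did not were crybgx, crygm2d3 and crygm2c.

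**Figure D2:**
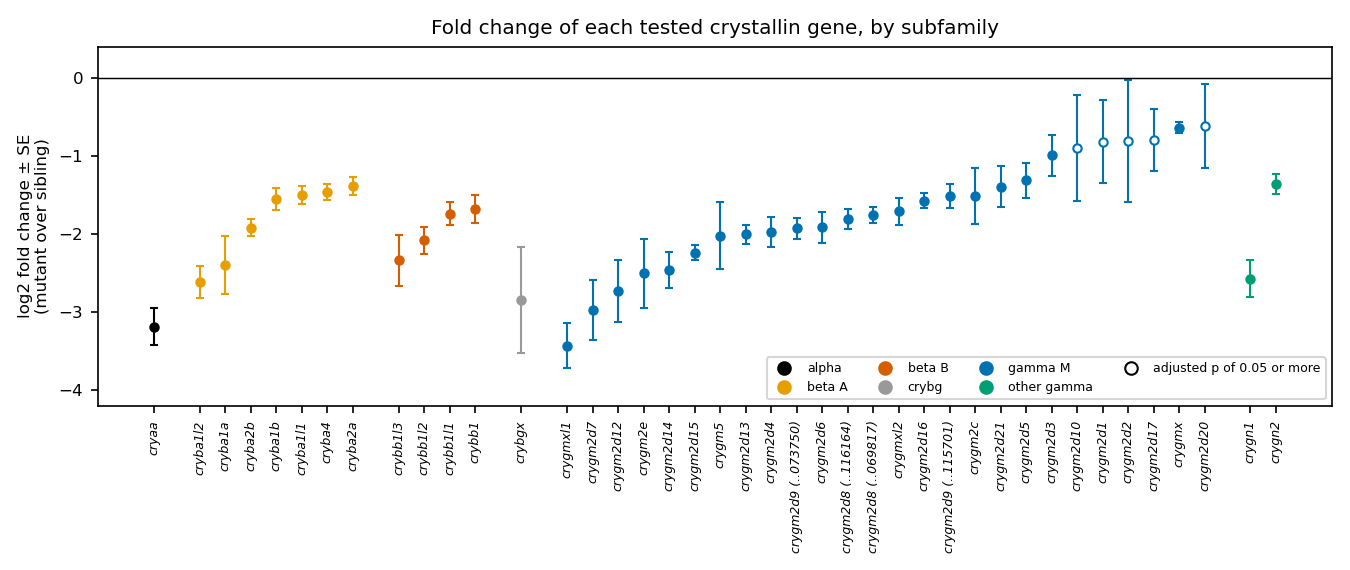
Log2 fold change (mutant over sibling) with its standard error for each of the 41 tested crystallin genes, coloured by subfamily, where open circles mark genes with an adjusted p of 0.05 or more. All 41 points lie below 0, from -3.43 for crygmxl1 to -0.61 for crygm2d20, and the 5 open circles are gamma M genes.

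Summed over all 57 members, crystallins took 4043, 3963 and 2850 CPM in mutants 1 to 3, against 11716, 11727 and 10248 CPM in siblings 1 to 3. The mutant mean was 32.2% of the sibling mean, and the members held 0.363% ± 0.064 of the counts of a mutant library and 1.12% ± 0.0725 of those of a sibling library (SD, n = 3 each). All mutant sums lay far below the lowest sibling sum, and mutant 3 was the lowest of the mutants.

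The subfamilies were also summed one by one. Beta A crystallins summed to 1223, 1215 and 932 CPM in mutants, against 3477, 3445 and 2939 CPM in siblings, or 34.2% of the sibling mean. Beta B crystallins summed to 1271, 1217 and 816 CPM in mutants, against 4146, 3969 and 3374 CPM in siblings, or 28.8%. Gamma M crystallins summed to 1273, 1268 and 903 CPM in mutants, against 3400, 3623 and 3341 CPM in siblings, or 33.2%. These 3 large subfamilies thus fell to similar parts of their sibling levels, with no overlap between the groups in any of them. Other gamma crystallins, which are almost wholly crygn2, kept 38.7% of their sibling sum, and alpha crystallins, almost wholly cryaa, kept 11.9%.

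Among the beta, gamma M and other gamma crystallins, the composition of the pool moved less than its size. Beta B crystallins made up 28.6% to 31.4% of crystallin CPM in mutants and 32.9% to 35.4% in siblings. Beta A crystallins made up 30.2% to 32.7% in mutants and 28.7% to 29.7% in siblings, and other gamma crystallins 6.50% to 6.85% in mutants and 5.45% to 5.69% in siblings. The groups did not overlap in these 3 shares, with beta B lower and the others higher in mutants. Shares of a pool add up to a whole, so they do not move independently of each other. The gamma M share was 31.5% to 32.0% in mutants and 29.0% to 32.6% in siblings, with the mutant values inside the sibling range. Alpha crystallins, a small part of the pool, made up 0.0544% to 0.0755% in mutants and 0.147% to 0.210% in siblings, without overlap. These sums and shares are given as a description, without a test.

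**Figure D3:**
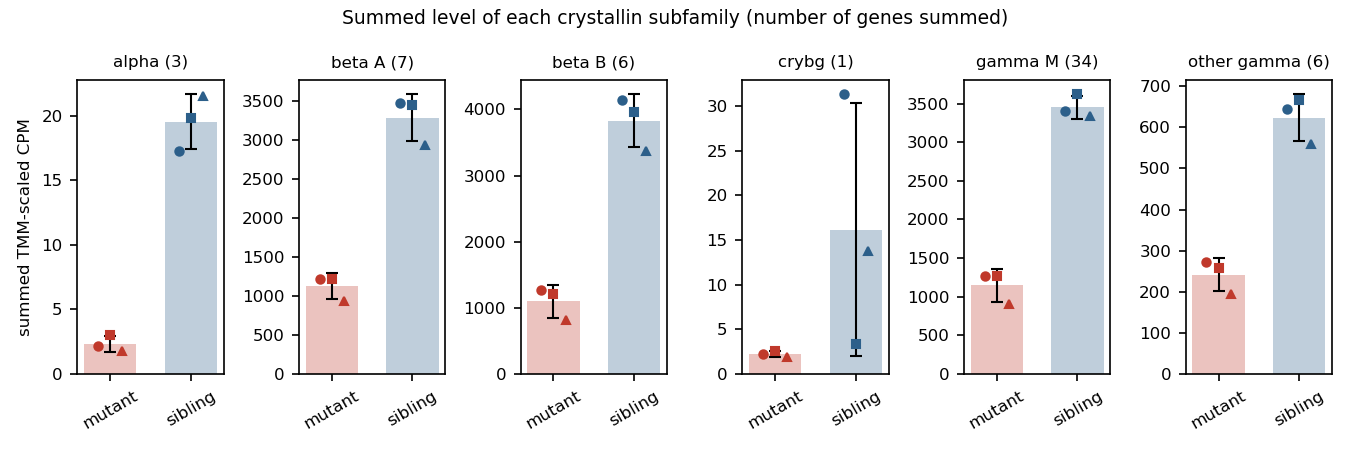
Summed level of each crystallin subfamily in CPM, with 1 symbol per library (circle, square and triangle for libraries 1, 2 and 3), bars for the group mean and error bars for the SD (n = 3), mutants left of siblings, and a separate axis from 0 for each subfamily. Every mutant symbol is below every sibling symbol of the same subfamily, and for crybg, a single gene, sibling 2 lies close to the mutants.

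Mutant 3 was the lowest mutant library in 32 of the 41 tested members, against 8975 of 24809 genes over the whole table. Sibling 3 was the lowest sibling in 23 members, against 7012 of 24809. Without mutant 3 the crystallin sum was 35.6% of the sibling level, and without sibling 3 it was 30.9%. Mutant 3 was also the lowest mutant in 12 of 18 tested lens fibre genes, and in 5 of 30 tested photoreceptor genes.

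Among alpha crystallins, cryaa (ENSDARG00000053502, chromosome 1 from 29096881 to 29100923, GRCz11, plus strand), the lens chaperone alpha A, had 33, 47 and 24 counts in mutants, against 304, 343 and 368 in siblings. Each mutant was several times below the lowest sibling. Its level was 2.09 ± 0.764 CPM in mutants and 19.1 ± 1.86 CPM in siblings (SD, n = 3 each), a log2 fold change of -3.19 (SE 0.24, adjusted p = 3.7e-05, quasi-likelihood test of edgeR, Benjamini-Hochberg adjusted). The alpha B crystallins, which in mammals are made in muscle and heart as well as lens, were barely detected. cryabb had 4, 1 and 4 counts in mutants, against 3, 8 and 13 in siblings, and cryaba 1, 0 and 2 in mutants, against 1, 0 and 1 in siblings. Neither could be tested, so a change was not detectable at this depth, and the alpha result rests on 1 gene.

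Other small heat shock proteins, the wider family to which alpha crystallins belong, did not share the fall of cryaa. Of 8 tested hspb genes, 5 were higher and 3 were not called, with a median log2 fold change of 0.55, while 13.6% of all genes tested were called higher. hspb6 had 1387, 1362 and 1557 counts in mutants, against 867, 897 and 877 in siblings, and all mutants lay above all siblings (log2 fold change 0.79, SE 0.08, adjusted p = 0.00014 by edgeR). hspb15 and hspb2 were also higher, by log2 fold changes of 0.68 and 1.997 (edgeR adjusted p = 0.0055 and 0.0060), hspb2 from few counts. Only 3 of these genes were called higher with the replicate block, with DESeq2 and in 5 of 6 runs with a library left out.

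Beta A crystallins, the acidic chains, were all detected and all lower. cryba1b (ENSDARG00000053875, chromosome 21) had 5518, 5063 and 3798 counts in mutants, against 16069, 15860 and 12816 in siblings, a log2 fold change of -1.55 (SE 0.14, adjusted p = 0.00012 by edgeR). Mutant counts stood at about the same part of the sibling counts in cryba1l1 (ENSDARG00000032929, chromosome 14), with 5426, 4988 and 4067 in mutants, against 15481, 15159 and 12960 in siblings. For cryba4 (ENSDARG00000024548, chromosome 10) counts were 5328, 4797 and 4087 in mutants, against 14786, 14148 and 12696 in siblings. No library of one group reached the other in any of these genes, and the log2 fold changes of cryba1l1 and cryba4 were -1.50 (SE 0.11) and -1.46 (SE 0.10).

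Within beta A, cryba2b (ENSDARG00000041925, chromosome 9 at 11554089 to 11560432, outside the gamma M cluster) had a larger estimated fall, with 2245, 2058 and 1696 counts in mutants, against 8395, 8382 and 7334 in siblings (log2 fold change -1.92, SE 0.11, adjusted p = 7.7e-06 by edgeR). Its paralog cryba2a had the smallest fall of the subfamily at -1.38 (SE 0.12). The 2 beta A genes of lowest FPKM had the largest estimated falls. cryba1l2 had 98, 110 and 62 counts in mutants, against 609, 649 and 510 in siblings (log2 fold change -2.62, SE 0.21), and cryba1a had 17, 12 and 8, against 93, 47 and 69 in siblings (-2.40, SE 0.37). Both had non-overlapping groups, and cryba1a rests on few counts. These genes, and other members named beyond the highest-level or smallest-p genes of each subfamily, were singled out after their values were seen.

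Beta B crystallins, the basic chains, held the member with the most counts. crybb1l1 (ENSDARG00000007576, chromosome 14 from 46301973 to 46310549, minus strand) had 9208, 8537 and 6098 counts in mutants, against 29696, 29590 and 25401 in siblings. Mutants 1 and 2 were close to each other and mutant 3 was lower, and all were far under the siblings (log2 fold change -1.74, SE 0.15, adjusted p = 7.3e-05 by edgeR). Per length, the highest crystallin of both groups was crybb1 (ENSDARG00000068507, chromosome 10), at 384 ± 97.3 FPKM in mutants and 1236 ± 139 FPKM in siblings (SD, n = 3 each). Its counts were 8024, 6994 and 4674 in mutants, against 24266, 23018 and 19786 in siblings (log2 fold change -1.68, SE 0.18, edgeR adjusted p = 0.00024). crybb1l2 (ENSDARG00000016793, chromosome 1) had 4715, 3983 and 2857 counts in mutants, against 19834, 17508 and 14598 in siblings, a larger estimated fall of -2.08 (SE 0.18). crybb1l3 had 11, 13 and 25 counts in mutants, against 85, 82 and 98 in siblings (log2 fold change -2.34, SE 0.32), again without overlap. crybb2 and crybb3, major beta crystallins of the mammalian lens, had at most 12 counts in any library and were not tested.

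Each tested beta B gene lay beside a beta A gene. cryba1l1 and crybb1l1 on chromosome 14, cryba4 and crybb1 on chromosome 10, and cryba1l2 and crybb1l2 on chromosome 1 were transcribed away from each other, with 2585, 14641 and 4953 bases between them. cryba1a and crybb1l3 overlapped on opposite strands of chromosome 15, and how strand was treated in counting is not given in the sources used here, so their reads may not be fully separable. Levels were close in one pair and far apart in another. cryba1l1 stood at 152 FPKM in mutants and 431 FPKM in siblings, and crybb1l1 beside it at 112 FPKM in mutants and 374 FPKM in siblings. cryba1l2 stood at 3.11 FPKM in mutants and 19.2 FPKM in siblings, while crybb1l2 beside it stood at 84.5 FPKM in mutants and 359 FPKM in siblings. In the pairs on chromosomes 14 and 10 the log2 fold changes of the beta A and beta B partner were -1.50 and -1.74, and -1.46 and -1.68. On chromosomes 1 and 15 the beta A partner had the larger estimated fall, with -2.62 and -2.08, and -2.40 and -2.34, and the difference within a pair was not tested.

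crybgx (ENSDARG00000036140, chromosome 7) had 38, 42 and 32 counts in mutants, against 559, 60 and 244 in siblings. The mutants were tightly grouped while the siblings spread over 9.25 times, with sibling 2 only just above the mutants. The log2 fold change was -2.85 (SE 0.68, adjusted p = 0.015 by edgeR), with 0.12 from limma-voom and 0.051 to 0.056 without each mutant library in turn. Without sibling 1 the log2 fold change was -1.93. An unnamed gene with a beta/gamma crystallin domain on an alternate contig of chromosome 7 had 78, 83 and 94 counts in mutants, against 905, 1085 and 849 in siblings. Counted together, crybgx and this gene had 116, 125 and 126 counts in mutants, against 1464, 1145 and 1093 in siblings. The log2 fold change of the sum was -3.24 (SE 0.14, adjusted p = 1.7e-06 by edgeR), with far less spread among siblings than in crybgx alone. In siblings the unnamed gene gave 53.3 of the 69.5 CPM of the sum. By itself it had a log2 fold change of -3.39 (SE 0.14), so the sum mostly shows that gene. Whether it is a copy of crybgx was not tested. The summing was chosen after seeing the data.

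cryaa was treated likewise, since an unnamed gene with an alpha crystallin A domain on an alternate contig of chromosome 1 had 35, 25 and 28 counts in mutants, against 388, 332 and 200 in siblings. Together they had 68, 72 and 52 counts in mutants, against 692, 675 and 568 in siblings (log2 fold change -3.24, SE 0.16, adjusted p = 3.5e-06 by edgeR). The combined fall was about that of cryaa alone, with a smaller standard error. Whether the unnamed gene is a copy of cryaa was not tested.

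Gamma M crystallins were the largest subfamily. The highest, crygm2d13 (ENSDARG00000057460, chromosome 9 from 22091161 to 22092089, minus strand), had 3108, 2803 and 2192 counts in mutants, against 11899, 12071 and 10525 in siblings (log2 fold change -2.001, SE 0.12, adjusted p = 1.2e-05 by edgeR). Per length it stood at 249 ± 41.2 FPKM in mutants and 999.8 ± 80.8 FPKM in siblings (SD, n = 3 each), next after crybb1 in both groups. No library of one group reached the other. The symbol crygm2d8 belongs to 2 identifiers. ENSDARG00000116164 had 2715, 2246 and 1778 counts in mutants, against 8564, 8670 and 7786 in siblings (log2 fold change -1.81, SE 0.13), and ENSDARG00000069817 had 1694, 1453 and 1291, against 5315, 5813 and 4833 in siblings (-1.76, SE 0.10). Both identifiers fell alike within their errors. How similar their sequences are was not examined, and any reads that match both may have been shared between them in counting.

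The smallest adjusted p of any member belonged to crygm2d15 (ENSDARG00000069826), with 766, 743 and 608 counts in mutants, against 3589, 3670 and 3375 in siblings (log2 fold change -2.24, SE 0.10, adjusted p = 2.0e-06 by edgeR). crygm2d16 (ENSDARG00000076790) had 1119, 994 and 867 counts in mutants, against 3121, 3348 and 2964 in siblings (-1.57, SE 0.09). Both were tight within groups. crygm2d16 lies inside the longer crygm2d14 on the same strand, and the fall of crygm2d14 was -2.46 (SE 0.23). Reads of these overlapping genes may not be fully separable, so their falls may not be independent.

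Some gamma M crystallins stood well apart from the median of -1.73. crygmx (ENSDARG00000053862, chromosome 12) had 2259, 1974 and 2079 counts in mutants, against 3480, 3666 and 3263 in siblings, or 64.4% of the sibling CPM. Its groups were tight and did not overlap, and its log2 fold change of -0.63 (SE 0.07, adjusted p = 0.00023 by edgeR) was the smallest called fall of any member, with -0.68 to -0.61 over the alternatives. By FPKM it was the twelfth crystallin in siblings and the seventh in mutants. Its neighbour crygmxl2 (ENSDARG00000074001), the next gene on the same strand, had 1904, 1659 and 1086 counts in mutants, against 5789, 5395 and 4973 in siblings, a log2 fold change of -1.71 (SE 0.18). At the other end, crygmxl1 (ENSDARG00000018797) had 8, 6 and 6 counts in mutants, against 91, 71 and 71 in siblings, the largest estimated fall of any tested member (log2 fold change -3.43, SE 0.29, edgeR adjusted p = 7.8e-05). crygm2d7 had 27 to 54 counts in mutants and 224 to 560 in siblings (log2 fold change -2.97), and crygm2d12 had 26 to 48 in mutants and 151 to 391 in siblings (-2.73).

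Most gamma M genes sit in a cluster on chromosome 9 from 21993092 to 22361681 (GRCz11), which wholly holds 32 members, 24 of them tested and 27 on the minus strand. They include the gamma S gene crygs4, while crygs3, which starts inside the cluster, overlaps crygm5 and crygm3 and ends beyond it, was not counted. The genes at its start, crygm7, crygm6 and crygm1, had at most 11 counts in any library, and crygm7 and crygm6 had none at all. In the 7 genes from crygm2d13 to crygm2d16 no library of one group reached the other, and the highest library of a group was at most 1.89 times its lowest.

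Further along the cluster, single libraries departed from their group. In 7 of the 41 tested members the highest library of a group was over 3 times the lowest, or 17.1%, against 8.42% of all genes tested. They were crybgx and 6 genes of the cluster, namely crygm2d20, crygm2d1, crygm2d2, crygm2d17, crygm2d10 and crygm5. The 5 members that were not called were all among these 7, and all 34 tested members with less spread were called lower. Spread within a group also raises the p-value of the test, so this split is partly built in.

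crygm2d20 had 1486, 1631 and 1434 counts in mutants, against 3666, 522 and 3248 in siblings. Sibling 2 was below every mutant while the other siblings were above them, and the log2 fold change was -0.61 (SE 0.54, adjusted p = 0.44 by edgeR). Without sibling 2 it was -1.11 (SE 0.10, adjusted p = 0.00028), the adjusted p over all alternatives being 0.00028 to 0.85. crygm2d17 had 173, 638 and 376 counts in mutants, against 808, 817 and 590 in siblings, with mutant 2 inside the sibling range (log2 fold change -0.79, SE 0.39, edgeR adjusted p = 0.17). It was called without mutant 2 (log2 fold change -1.36, adjusted p = 0.025), and its adjusted p ranged from 0.025 to 0.34.

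crygm2d21, crygm2d10, crygm2d2 and crygm2d1 follow one another along the cluster and shared their odd libraries. crygm2d2 had 727, 695 and 135 counts in mutants, against 138, 1655 and 1101 in siblings. crygm2d10 had 382, 401 and 103 counts in mutants, against 116, 919 and 716 in siblings. crygm2d1 had 1139, 1283 and 348 counts in mutants, against 696, 2661 and 1842 in siblings. Mutant 3 and sibling 1 were the low libraries in each, so that in all 3 genes the groups overlapped. Their log2 fold changes were -0.81 (SE 0.79), -0.89 (SE 0.68) and -0.82 (SE 0.53), with edgeR adjusted p of 0.49, 0.37 and 0.29, and they were not called under any alternative. Single libraries moved these estimates, to -1.32, -1.38 and -1.19 without sibling 1 (adjusted p = 0.11, 0.052 and 0.082 by edgeR) and to -0.17, -0.41 and -0.37 without sibling 2. Without mutant 3 they were -0.35, -0.48 and -0.42. crygm2d21, with 1202, 967 and 543 counts in mutants, against 1863, 2847 and 2839 in siblings, had the same low libraries but no overlap (-1.39, SE 0.27, edgeR adjusted p = 0.0056). An unnamed crystallin gene on an alternate contig of chromosome 9 had 6053, 5340 and 5670 counts in mutants, against 23380, 19794 and 16958 in siblings. Its positions on that contig, 22204722 to 22331234, span the numbers of crygm2d20, crygm2d21, crygm2d10 and crygm2d2, but not those of crygm2d1. They also span crygm2d5, crygm2d4, crygm2d7, crygm2d3 and ENSDARG00000115701 of crygm2d9, which were called lower without overlap between the groups. In the unnamed gene sibling 1 was the highest sibling, sibling 2 was the middle one, and mutants 1 to 3 were close at 350, 333 and 339 CPM. Whether reads of single gamma M genes were divided with such alternate copies was not tested.

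**Figure D4:**
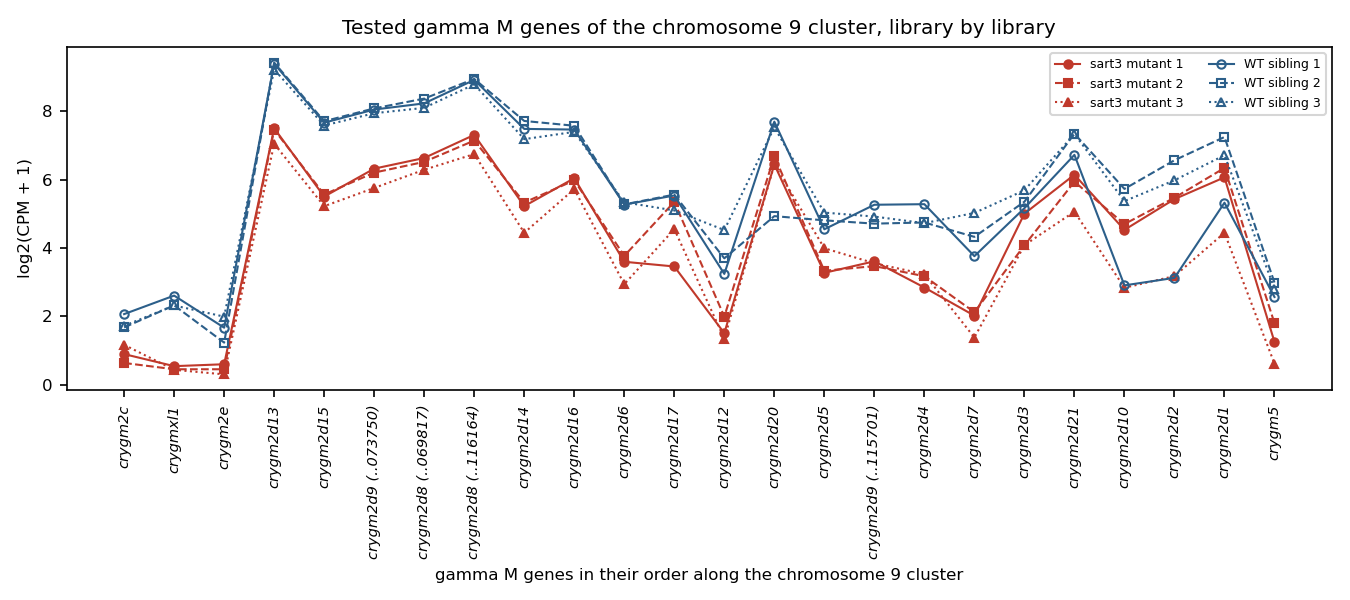
Level of the 24 tested gamma M genes of the chromosome 9 cluster as log2(CPM + 1), in chromosomal order from left to right, with a line per library (mutants red and filled, siblings blue and open). Lines of the groups run parallel from crygm2d13 to crygm2d16, while sibling 2 drops at crygm2d20 and sibling 1 and mutant 3 drop together at crygm2d10, crygm2d2 and crygm2d1.

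2 gamma M genes lost their call in some settings. crygm2d3 had 537, 255 and 267 counts in mutants, against 621, 705 and 896 in siblings (log2 fold change -0.99, SE 0.26, adjusted p = 0.023 by edgeR), with 0.071 to 0.084 without mutant 2, mutant 3 or sibling 3 and 0.00026 to 0.084 over all alternatives. crygm2c had 15, 9 and 21 counts in mutants, against 57, 39 and 41 in siblings (-1.51, SE 0.36, edgeR adjusted p = 0.014), and missed the threshold at 0.051 without mutant 1 or mutant 2, the range over alternatives being 0.0081 to 0.051.

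Of the other gamma crystallins, crygn2 (ENSDARG00000030411, chromosome 24), a gamma N crystallin, had 4677, 4108 and 3243 counts in mutants, against 11355, 11632 and 9789 in siblings. Per length this was 242 ± 41.0 FPKM in mutants and 622 ± 60.7 FPKM in siblings (SD, n = 3 each), the third highest crystallin in mutants and the fourth in siblings. Its log2 fold change of -1.36 (SE 0.13, adjusted p = 0.00013 by edgeR) was the smallest outside gamma M. crygn1 (ENSDARG00000102129, chromosome 2) had 22, 18 and 25 counts in mutants, against 126, 166 and 120 in siblings, and fell by 2.57 on the log2 scale (SE 0.23, edgeR adjusted p = 0.00011). The gamma N genes thus stood far apart in level and in estimated fall, with no overlap between groups in either. The gamma S genes crygs1 to crygs4, whose mammalian counterpart is abundant in the adult lens, had at most 12 counts in any library and were not tested.

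In all, 16 members were not tested, namely 2 alpha, 2 beta B, 8 gamma M and 4 gamma S genes, each with 13 counts or fewer in every library. At this depth a change in them was not detectable. None of the 57 members appeared among the 2075 splicing events in the deposited tables, which list only events that passed the authors' test.

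Another 15 genes outside the naming rule were marked as crystallins by family or description and were unnamed or lay on chromosome 9, 10 of them on alternate contigs. Of the 12 tested, 8 were lower and 4 were not called, beside 14.3% of all genes tested called lower. Their median log2 fold change was -2.23. The largest of them, on an alternate contig of chromosome 9, had 6053, 5340 and 5670 counts in mutants, against 23380, 19794 and 16958 in siblings (log2 fold change -1.73, SE 0.11). Adding 13 of these genes to the gamma M sum gave 1542 ± 224 CPM in mutants and 4855 ± 267 CPM in siblings (SD, n = 3 each), or 31.8% of the sibling level. Whether all 13 are gamma M genes is not known. They include a gene on chromosome 10 and another beyond the cluster, both with at most 30 counts in any library. How reads that match several places were counted is not given in the sources used here, so levels of single gamma M genes are uncertain where alternate copies exist.

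Other genes of the lens fell as well. In a list of lens fibre genes, 11 of 18 tested were lower, 1 was higher and 6 were not called, with a median log2 fold change of -1.38. Among all genes tested, 14.3% were called lower and 13.6% higher. The list summed to 109 to 152 CPM in mutants and 436 to 555 CPM in siblings, and the connexin gja3 was at 0 in all libraries. bfsp2, a beaded filament protein of fibre cells, had 226, 255 and 121 counts in mutants, against 2115, 2163 and 1702 in siblings (log2 fold change -3.22, SE 0.24, edgeR adjusted p = 3.8e-05). lgsn, the lens protein lengsin, had 159, 180 and 91 counts in mutants, against 919, 930 and 797 in siblings (-2.53, SE 0.22), and grifin, a galectin-related fibre protein, had 54, 43 and 42, against 229, 269 and 216 in siblings (-2.27, SE 0.17). In each the mutants were far below the siblings, with mutant 3 the lowest. The one gene that was higher, the ephrin receptor epha2a, had 46, 39 and 29 counts in mutants, against 21, 21 and 18 in siblings (1.01, SE 0.29, edgeR adjusted p = 0.033) and is named after its values were seen. Its call was lost with DESeq2, with the replicate block and in 5 of 6 runs with a library left out.

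The list of lens transcription factors changed less than the crystallins, with 6 of 14 tested lower, 8 not called and a median log2 fold change of -0.41. Of all genes tested, 14.3% were called lower. RNA came from whole larvae, so the part of the lens in these levels was not measured. hsf4, the heat shock factor of the lens, had 21, 25 and 14 counts in mutants, against 119, 112 and 92 in siblings (log2 fold change -2.33, SE 0.27, edgeR adjusted p = 0.00039). sox2, which is also active throughout the nervous system, had 651, 532 and 591 counts in mutants, against 1329, 1122 and 1048 in siblings (-0.89, SE 0.10), and six3b, a gene of the early eye field and forebrain, had 501, 457 and 494, against 754, 773 and 699 in siblings (-0.53, SE 0.08). hsf4 thus lay far below the rest of its list. The other factors called lower were pax6b, sox1b and pax6a, with log2 fold changes of -0.58, -0.94 and -0.28 (edgeR adjusted p = 0.0016, 0.0041 and 0.0087). The 8 not called had log2 fold changes from -0.62 in six3a to 0.12 in mafbb. pitx3, foxe3 and prox1a, which act in lens epithelium or early fibres, were picked from them. Their log2 fold changes were -0.24, -0.55 and -0.05 (edgeR adjusted p = 0.22, 0.23 and 0.80). foxe3 had few counts, with 19, 16 and 17 in mutants, against 20, 33 and 28 in siblings, and every mutant lay below every sibling.

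Most genes listed for the retina were also lower. Of these, 26 of 30 tested photoreceptor genes and 10 of 13 other retinal genes were called lower, with median log2 fold changes of -1.48 and -0.57. Since whole larvae were sequenced, the part of the retina in these levels was not measured. The photoreceptor list summed to 2224 to 2596 CPM in mutants and 6208 to 7442 CPM in siblings, with opn1mw4 and gngt1 at 0, and the part of these lists in the crystallin result was not tested. The rod arrestins saga and sagb and the rod transducin gnat1 had log2 fold changes of -2.11, -2.26 and -2.72. The retinal lists, and those from outside the neural eye, stand beside 13.6% of all genes tested called higher and 14.3% called lower. In a joint list of genes of the eye's pigment epithelium and of melanocytes, 6 of 11 were higher (median 0.68). In skeletal muscle genes 10 of 14 were higher and 2 were lower (median 0.35), and in skin genes 2 of 7 were higher and 2 were lower (median 0.23). In heart genes edgeR called 0 of 4 at the adjusted threshold, with 2 at an unadjusted p under 0.05 and 0 by DESeq2 or limma-voom (median 0.12).

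Genes that carry a crystallin name without being lens structural proteins moved less. crym, a thyroid hormone binding protein also called mu crystallin, had 47, 44 and 36 counts in mutants, against 120, 70 and 82 in siblings (log2 fold change -1.01, SE 0.26, edgeR adjusted p = 0.021), a call that was lost without sibling 1 or without any of the mutants. The oxidoreductase genes cryz and cryzl1 had log2 fold changes of -0.28 and -0.06 and were not called (edgeR adjusted p = 0.094 and 0.83).

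**Figure D5:**
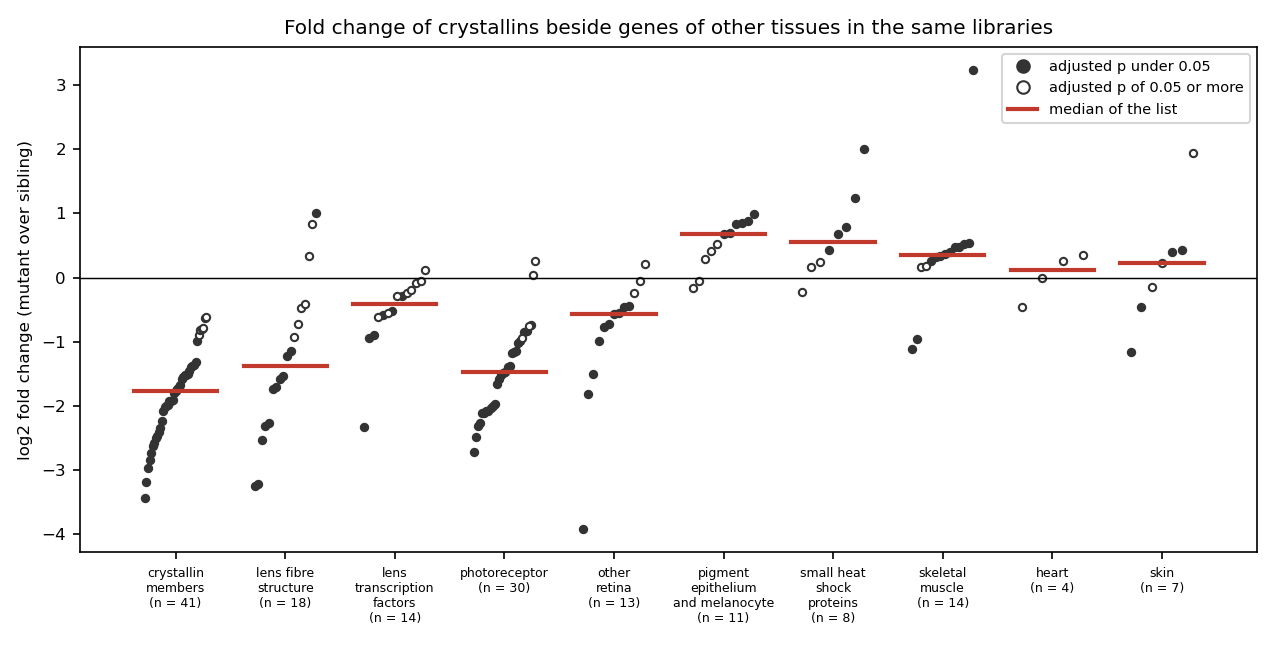
Log2 fold change (mutant over sibling) of the 41 tested crystallin members beside tested genes of 9 other lists, where filled circles have an adjusted p under 0.05, open circles do not, and red lines mark list medians. The crystallin median of -1.76 lies near those of lens fibre genes at -1.38 and photoreceptor genes at -1.48, and the pigment, small heat shock, muscle, heart and skin medians lie above 0.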

How the data were processed

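Whole larvae of 2 genotypes were sequenced, with 3 libraries each. The authors deposited raw counts of reads per gene for every library, without normalization, and FPKM values made from count, gene length and a constant of each library. The submitters' processing notes list HISAT2 2.0.5, featureCounts 1.5.0-p3 and the build GRCz11. Tables of splicing events that the authors deposited hold rMATS junction reads, inclusion levels and p-values, and only their gene identifiers were read.

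Counts were compared with edgeR 4.0.16 in R 4.3.3 (filterByExpr, TMM factors, quasi-likelihood test, Benjamini-Hochberg adjustment over all 24809 genes tested, called under 0.05). The code was also run on simulated counts with the same dispersion for every gene. That run does not cover spread that differs from gene to gene, as in these data. CPM are counts over the TMM-scaled library size. The common dispersion was 0.0274, and libraries of a group differed by more than counting noise (chi-square per degree of freedom 4.41 to 13.5). Standard errors were taken from the fold change and its F statistic. Fold changes are mutant over sibling.

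Alternatives were DESeq2 1.42.0, limma-voom (limma 3.58.1), RLE and upper-quartile factors, no filter beyond a single count, a minimum of 10 counts per library, a replicate block, leaving out each library, and a log2 fold change of at least 1. The summing with unnamed genes on alternate contigs was added after seeing the data. The members and lists were chosen with earlier results of these data known, and the lists were written from general knowledge. Named were every alpha crystallin, the 4 members of highest level and up to 3 of smallest adjusted p in each other subfamily, *sart3*, and the 3 genes of smallest adjusted p in each other list, of which those outside the lens are given mostly as counts. Further lens genes were named outside this rule. Figures were drawn with matplotlib 3.10.9. Sequences were not used here.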

Additional observations from a re-analysis of the deposited data

How the results depend on the processing

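The number of members called lower was 36 with edgeR and stayed between 31 and 36 with DESeq2, limma-voom, other factors, other filters and the replicate block, 34 with a log2 fold change of at least 1, and 34 to 37 with a library left out. Over 530 values of single members, 519 kept their direction and side of the threshold, 9 missed it and 2 passed it, and no direction turned. Over all genes tested, the deviations of same-numbered libraries correlated at 0.064, 0.028 and -0.107, so no pairing by number was seen. Correlations over so few libraries cannot exclude shared clutches. With the replicate block 2869 genes were called higher and 3072 lower. The block changed no call of a member.

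Where more low-count genes entered, medians moved, to -1.34 with DESeq2 and -1.31 with every gene with a count in alpha, to -1.72 and -1.73 in beta B, and to -1.46 and -1.69 in other gamma. The crybg count was 0 with limma-voom. Without its top member the log2 ratio of sums was -1.05 in alpha and -2.49 in other gamma. The count of lens fibre genes called higher was 0 with DESeq2, 2 with at least 10 counts and 0 with the replicate block. Small heat shock genes called higher were 3 in each of these settings, with a median of 0.33 at the 10 count filter.

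A log2 fold change of at least 1 left 775 genes higher and 1288 lower. Among lists it left 1 lens transcription factor lower, 3 other retinal genes lower, 0 pigment genes higher, 1 muscle gene higher and 1 lower, 0 skin genes higher and 1 lower, and 2 small heat shock genes higher. This threshold is stricter by construction.

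With each library left out in turn, medians ranged from -3.50 to -2.98 in alpha, -1.65 to -1.40 in beta A, -2.002 to -1.58 in beta B and -3.35 to -1.93 in crybg, whose count was 0 to 1. The smallest falls of beta A and beta B came without mutant 3. Genes called higher were 2226 to 3480, lens fibre genes higher 0 to 1, small heat shock genes higher 3 to 5, skin genes higher 1 to 2 and lower 1 to 2, and other crystallin-named genes lower 0 to 1. cryzl1 ranged from -0.22 to 0.10, turning positive without sibling 1 (0.10) and without mutant 1 (0.0091). Apart from the filters and the threshold, the cause was not tested. Counts of 13 or fewer limit the 16 members left untested.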
